A study of Mus musculus with 27 samples.

Results

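The 10 genes described here mark the pericentral zone of the liver lobule or respond to Wnt signaling: Glul, Oat, Cyp2e1, Cyp1a2, Slc1a2, Axin2, Lgr5, Rnf43, Tbx3 and Lhpp. They were chosen by symbol, all 10 were found among the 23191 gene symbols of the count table, and all 10 passed the filter on low counts in every comparison. RNA-Seq was performed on liver from 27 male C57BL/6J mice in 4 groups, namely littermate controls on chow (n = 7), HGFAC-KO mice on chow (n = 6), controls on HF/HS, a diet high in fat and sucrose (n = 7), and HGFAC-KO mice on HF/HS (n = 7). Livers were taken after 4 weeks on the diets. An age of 8 weeks, with no source noted, is recorded for all 27 mice in the sample annotation used here. The study started its metabolic cohort on HF/HS at 8 weeks of age, and it does not state the age of the sequenced mice. HGFAC is a serine protease, made in the liver and secreted into blood, that activates hepatocyte growth factor. The knockout was made with CRISPR/Cas9 as a germline deletion that runs from within exon 1 through exon 2 of Hgfac. Each mouse gave 1 library of whole liver, so fewer cells of a type and less RNA per cell cannot be told apart.

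Blood enters the liver lobule at the portal tracts and leaves by the central vein, and hepatocytes divide their work along that path. Endothelial cells of the central vein secrete Wnt ligands and R-spondins. These stabilize beta-catenin in the nearest hepatocytes, where it works with TCF/LEF factors to switch on pericentral genes. Periportal hepatocytes carry more of the urea cycle and gluconeogenesis, and pericentral hepatocytes more of glutamine synthesis and drug metabolism. Among the 10 genes, Glul (glutamine synthetase), Oat (ornithine aminotransferase) and Slc1a2 (a glutamate transporter) handle glutamate and ammonia at the end of the path. Cyp2e1 and Cyp1a2 are cytochromes P450, the former known for ethanol and acetaminophen oxidation and the latter for caffeine. Axin2 is a scaffold of the complex that destroys beta-catenin, Rnf43 a ubiquitin ligase that removes Wnt receptors, and Lgr5 a receptor for R-spondins. Tbx3 is a transcription factor, and Lhpp is a phosphatase that acts on phosphohistidine.

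In the GRCm38 assembly with GENCODE M21 gene models, Glul lay at chr1:153899944-153909723, Slc1a2 at chr2:102658659-102790784, Cyp2e1 at chr7:140763739-140774987 and Cyp1a2 at chr9:57676937-57683703. Axin2 lay at chr11:108920349-108950783, Rnf43 at chr11:87662722-87735539, Lgr5 at chr10:115450311-115587780 and Tbx3 at chr5:119670669-119684724. Oat (chr7:132557478-132576398, minus strand) and Lhpp (chr7:132610638-132706420, plus strand) lay 34239 bases apart and pointed away from each other.

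RefSeq start regions (GRCm38.p6) of 300 bases, 250 of them before the transcription start, were at hand for 7 of the 10 genes, with 2 for Rnf43, and were searched on both strands for CTTTGA, the core that TCF/LEF factors bind. The core was found in 3 of the 8 regions and in 5257 of all 32851 such regions (16%), so its presence near these genes is a description and not a site. The 3 matches are shown because Cyp2e1 and Cyp1a2 belong to the co-varying genes below and Slc1a2 carried the longer form CTTTGAT, which 3.73% of regions held. Each stretch below reads 5′ to 3′ on the strand of its gene and stops before the first annotated exon, and the capitals mark the core or its reverse complement TCAAAG. Base positions are counted back from the RefSeq start. The Cyp2e1 stretch (chr7:140763569-140763738, plus strand) held the core at -135, the Cyp1a2 stretch (chr9:57683704-57683905, minus strand) held the reverse complement at -243, and the Slc1a2 stretch (chr2:102706188-102706355, plus strand) held the reverse complement at -206. The Slc1a2 start lay inside the gene model. It had a further match at -77, past the end of the printed bases. No match was found in these windows of Glul, Oat, Axin2 or Rnf43, and Lgr5, Tbx3 and Lhpp were not searched. GCGTG, the core bound by the aryl hydrocarbon receptor, was found on either strand in 32.4% of all regions, in 1 of the 8 here (of Rnf43), and not in the Cyp1a2 window.
Cyp2e1: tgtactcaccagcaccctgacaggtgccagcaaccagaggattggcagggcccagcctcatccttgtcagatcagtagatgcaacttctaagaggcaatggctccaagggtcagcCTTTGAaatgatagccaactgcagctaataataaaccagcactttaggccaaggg
Cyp1a2: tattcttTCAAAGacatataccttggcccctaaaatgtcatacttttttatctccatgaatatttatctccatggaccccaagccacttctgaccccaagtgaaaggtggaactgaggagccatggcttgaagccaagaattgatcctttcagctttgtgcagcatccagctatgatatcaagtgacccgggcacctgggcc
Slc1a2: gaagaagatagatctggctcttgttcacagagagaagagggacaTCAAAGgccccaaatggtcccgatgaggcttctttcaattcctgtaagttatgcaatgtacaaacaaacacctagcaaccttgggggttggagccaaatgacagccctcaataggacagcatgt

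Library totals ran from 36056177 to 57298657 counts, with a median of 47239271. Hgfac itself, the targeted gene, averaged 201 ± 12.8 CPM (counts scaled to library size; SD, n = 7) in chow controls and 75.2 ± 8.27 (n = 6) in chow HGFAC-KO mice. On HF/HS it averaged 271 ± 15.5 (n = 7) in controls and 91.8 ± 7.94 (n = 7) in HGFAC-KO mice. No HGFAC-KO mouse reached the lowest control of its diet. The counts cover the whole gene, of which the deletion removes a part. Hepatocyte markers summed to between 89710 and 132300 CPM in every library, and the 6 central vein endothelial markers to between 14.6 and 33.0 CPM. Replicate 1 of the chow HGFAC-KO group and replicate 7 of the HF/HS control group stood apart, with median correlations to their group of 0.981 and 0.980 against 0.988 to 0.992 in the others. The former library had the lowest level of its group in 9 of the 10 genes and the lowest of all 27 mice in 5. It also had the highest share of ribosomal protein reads of all libraries (1.18%, against a median of 0.858%). Its median deviation from the group mean was the highest of 27 mice for sinusoidal endothelial (0.37, log2) and stellate cell markers (0.43) and the lowest for the other pericentral genes listed further on (-0.35). The part of these in its low levels was not tested. Values without the library concerned are given beside several of the results below.

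The 10 genes covered a wide range of levels. Per kilobase of annotated exon, chow controls held 2620 ± 424 CPM of Cyp2e1 (SD, n = 7), far above the rest. Oat (395 ± 73.4), Glul (360 ± 55.9) and Cyp1a2 (263 ± 42.3) followed, and Oat and Glul did not differ beyond their spread. Lhpp (24.95 ± 5.20), Slc1a2 (13.3 ± 1.76) and Tbx3 (12.1 ± 1.58) came next, the last pair again within their spread. The Wnt feedback genes were lowest, with 5.615 ± 0.690 CPM per kilobase for Rnf43, 2.50 ± 0.338 for Axin2 and 0.812 ± 0.0675 for Lgr5. These levels depend on exon models that may differ from those used for counting. All other levels below are in CPM with TMM scaling, not per length.

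**Figure D1:**
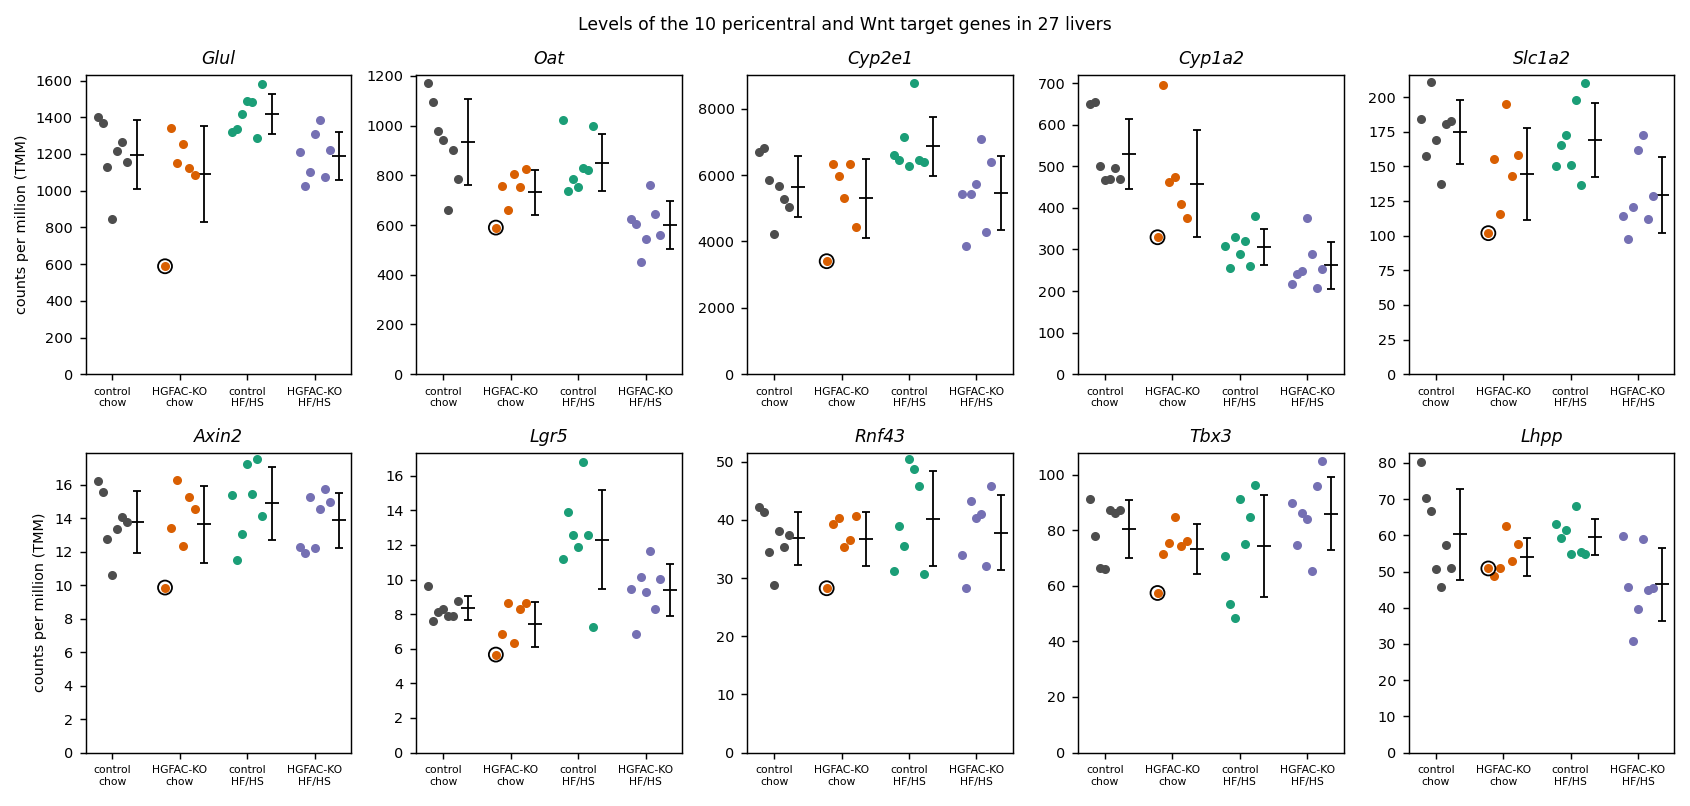
Level of each gene (CPM, vertical axis from 0) in each of 27 mice, by genotype and diet. Bars give mean ± SD, and the ringed point is replicate 1 of the chow HGFAC-KO group, which was lowest of its group in 9 of 10 genes. Cyp1a2 of HF/HS controls sits below all chow controls, and most HGFAC-KO mice on HF/HS lie low in Oat.

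The first comparison asked how the HF/HS diet changed the 10 genes in control liver. Cyp1a2 fell and Lgr5 rose, and the other 8 genes did not pass the test. Thus 2 of 10 genes passed an adjusted p of 0.05 (edgeR quasi-likelihood test, Benjamini-Hochberg over all genes) where 10.5% of all 13525 genes tested did. At an unadjusted p below 0.05 the count was 4 of 10, against 25.4% of all genes. Groups did not overlap in 1 of 10 genes, Cyp1a2, against 3.58% of all genes.

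Cyp1a2 ranged from 467 through a median of 495 to 656 CPM in chow controls and from 255 through 308 to 381 CPM in HF/HS controls. Every HF/HS control lay below every chow control. The log2 fold change was -0.79 ± 0.10 (SE; adjusted p = 1.57e-04, edgeR), a level 42.3% lower, and the exact permutation test gave p = 0.000583, the smallest it can give here (two-sided). In HGFAC-KO mice Cyp1a2 ranged from 329 through 436 to 696 CPM on chow and from 209 through 248 to 376 CPM on HF/HS. Here 6 of 7 HF/HS mice lay below all chow mice. The log2 fold change was -0.81 ± 0.17 (adjusted p = 0.0107, edgeR), and -0.88 on mean log2 CPM without replicate 1 of the chow HGFAC-KO group (exact permutation p = 0.00253). The interaction of genotype and diet for Cyp1a2 was -0.02 on the log2 scale, with a 95% confidence interval from -0.43 to 0.40.

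Lgr5, the R-spondin receptor, ranged from 7.63 through 8.15 to 9.65 CPM in chow controls and from 7.26 through 12.6 to 16.8 CPM in HF/HS controls. Of the 7 HF/HS controls 6 lay above all chow controls, and the other, replicate 7, lay below them all. The log2 fold change was 0.56 ± 0.13 (adjusted p = 0.0116, edgeR). With replicate number added to the edgeR fit as a block the adjusted p was 0.0589. In HGFAC-KO mice Lgr5 ranged from 5.66 through 7.57 to 8.67 CPM on chow and from 6.88 through 9.48 to 11.7 CPM on HF/HS, with a log2 fold change of 0.34 ± 0.13 (adjusted p = 0.124, edgeR). The diet difference of Lgr5 did not itself differ between genotypes past the test (interaction -0.22, 95% confidence interval -0.61 to 0.16).

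Among the remaining enzymes, Glul and Cyp2e1 were higher on HF/HS in controls at an unadjusted p only. Glul ranged from 844 through 1216 to 1400 CPM on chow and from 1287 through 1420 to 1583 CPM on HF/HS, and the groups overlapped. Its log2 fold change was 0.24 ± 0.09 (adjusted p = 0.108, edgeR). Cyp2e1 ranged from 4232 through 5659 to 6815 CPM on chow and from 6283 through 6453 to 8763 CPM on HF/HS, again overlapping, with a log2 fold change of 0.28 ± 0.10 (adjusted p = 0.1001, edgeR). In HGFAC-KO mice the corresponding log2 fold changes were 0.12 ± 0.14 and 0.04 ± 0.16, and without replicate 1 of the chow HGFAC-KO group they were -0.01 and -0.06. For the other 6 genes the fold changes in controls ran from -0.14 (Oat) to 0.12 (Rnf43) on the log2 scale, all with intervals that include 0.

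Within HGFAC-KO mice 1 of 10 genes passed the adjusted threshold between diets, Cyp1a2, against 5.89% of 13613 genes. At an unadjusted p below 0.05 the genes were Cyp1a2 and Oat, lower, and Lgr5 and Tbx3, higher, thus 4 of 10 against 22.4% of all genes. Without replicate 1 of the chow HGFAC-KO group the counts were 2 lower and 1 higher, the fold changes were below 0 in 8 of 10 genes in place of 4, and their median was -0.06 in place of 0.03. The exact permutation p of Lgr5 went from 0.0338 to 0.0694 without that library, and that of Tbx3 from 0.0845 to 0.181. No member's diet groups were apart, against 3.09% of all genes. Oat ranged from 590 through 755 to 825 CPM on chow and from 450 through 605 to 762 CPM on HF/HS (log2 fold change -0.29 ± 0.11; adjusted p = 0.124, edgeR). Tbx3, the transcription factor, ranged from 57.4 through 74.8 to 84.7 CPM on chow and from 65.3 through 86.3 to 105.0 CPM on HF/HS (0.23 ± 0.10; adjusted p = 0.203, edgeR). Both pairs of groups overlapped.

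**Figure D2:**
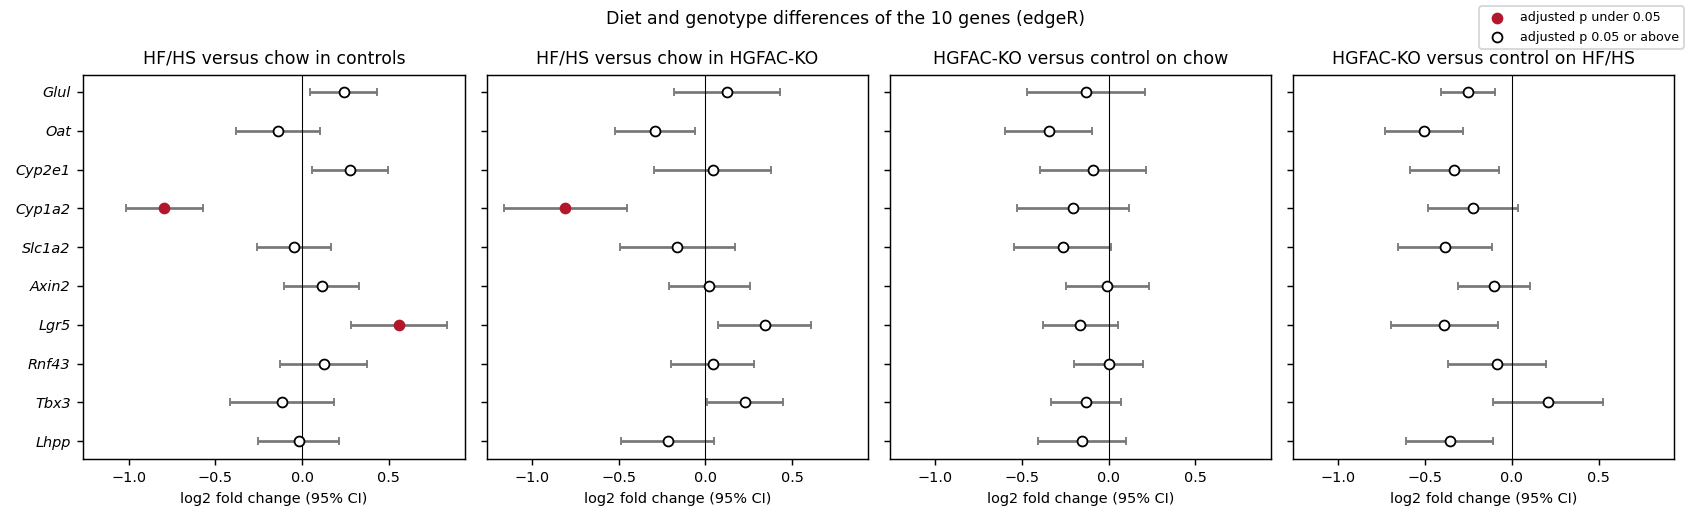
Log2 fold change (horizontal axis) with its 95% confidence interval for the 10 genes in 4 comparisons, from edgeR. Filled points pass an adjusted p of 0.05, which only Cyp1a2 (both diet comparisons) and Lgr5 (diet in controls) do. In the comparison of HGFAC-KO with control on HF/HS, 9 of the 10 points lie left of 0.

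The second comparison asked whether loss of HGFAC changed the 10 genes on chow. None passed the adjusted threshold by edgeR or limma voom, nor did any of the 6 genes to which DESeq2 gave an adjusted p (it gave none for Axin2, Lgr5, Rnf43 and Lhpp), and in all 1 gene passed by edgeR, Hgfac itself (0.00737% of 13571 genes). At an unadjusted p below 0.05 edgeR counted 1 of 10 genes, against 5.98% of all genes in either direction and 2.59% lower. The fold changes were below 0 in 9 of 10 genes, against 48.8% of all genes, with a median of -0.14 against 0.00. Without replicate 1 of the chow HGFAC-KO group they were below 0 in 7 of 10, with a median of -0.08. No member had groups that did not overlap, against 0.133% of all genes. Because the 10 genes co-vary between mice, such counts are not 10 independent observations. The genes were also chosen with earlier results of these data known.

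Oat was the gene past the unadjusted threshold. It ranged from 660 through 941 to 1169 CPM in chow controls and from 590 through 755 to 825 CPM in chow HGFAC-KO mice, and the groups overlapped. The log2 fold change was -0.34 ± 0.12 (adjusted p = 0.801, edgeR) and the exact permutation p was 0.0344 (two-sided), or 0.0720 without replicate 1 of the HGFAC-KO group.

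On HF/HS the median genotype difference of the 10 genes was further from 0, and none passed the adjusted threshold by edgeR. By edgeR 0 of 10 passed against 0.0148% of 13544 genes, by limma voom 0, and by DESeq2 1, Oat. At an unadjusted p below 0.05 edgeR counted 6 of 10 genes, all lower in HGFAC-KO liver, against 9.64% of all genes in either direction and 4.7% lower. These were Oat, Glul, Cyp2e1, Slc1a2, Lgr5 and Lhpp, and the same 6 were past it without replicate 7 of the control group. The fold changes were below 0 in 9 of 10 genes, all but Tbx3, against 50.5% of all genes, and their median was -0.29 against 0.00. The 10 genes co-vary between mice and were chosen with earlier results of these data known. Setting their counts against all genes is therefore not a test of the 10 as a set. No member's groups were apart, against 0.0812% of all genes.

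Oat ranged from 735 through 823 to 1023 CPM in HF/HS controls and from 450 through 605 to 762 CPM in HF/HS HGFAC-KO mice. Of the 7 HGFAC-KO mice 6 lay below all controls. The log2 fold change was -0.51 ± 0.11 (adjusted p = 0.251 by edgeR and 0.00448 by DESeq2), a level 29.5% lower, with an exact permutation p of 0.00175. Lhpp, the neighbor of Oat on chromosome 7, ranged from 54.8 through 59.2 to 68.0 CPM in controls and from 30.9 through 45.4 to 59.7 CPM in HGFAC-KO mice. Its groups overlapped, with a log2 fold change of -0.36 ± 0.12 (adjusted p = 0.418, edgeR; exact permutation p = 0.0117).

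Glul, the enzyme that makes glutamine, ranged from 1287 through 1420 to 1583 CPM in controls and from 1027 through 1211 to 1383 CPM in HGFAC-KO mice. Of the 7 HGFAC-KO mice 5 lay below all controls, with a log2 fold change of -0.25 ± 0.07 (adjusted p = 0.394, edgeR; exact permutation p = 0.00466). Slc1a2, which brings glutamate into the cell, ranged from 137 through 166 to 210.2 CPM in controls and from 97.5 through 121 to 172 CPM in HGFAC-KO mice. Again 5 of 7 lay below all controls (-0.38 ± 0.13; adjusted p = 0.418, edgeR; exact permutation p = 0.0187). Cyp2e1 ranged from 6283 through 6453 to 8763 CPM in controls and from 3877 through 5423 to 7086 CPM in HGFAC-KO mice, with 5 of 7 below all controls (-0.33 ± 0.12; adjusted p = 0.448, edgeR; exact permutation p = 0.0140).

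Of the Wnt feedback genes, Lgr5 ranged from 7.26 through 12.6 to 16.8 CPM in controls and from 6.88 through 9.48 to 11.7 CPM in HGFAC-KO mice. The groups overlapped (-0.39 ± 0.15; adjusted p = 0.448, edgeR), and the exact permutation p was 0.0519, or 0.00175 without replicate 7 of the controls, their lowest. Axin2 (-0.10 ± 0.10) and Rnf43 (-0.09 ± 0.13) had intervals that include 0, from -0.31 to 0.10 and from -0.37 to 0.20. Cyp1a2 stood at -0.22 ± 0.12 and Tbx3 at 0.21 ± 0.15, and both intervals include 0.

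The difference between the genotype effects on the 2 diets was tested as an interaction. By edgeR 0 of 10 members and 0 of 13932 genes (0.0%) passed the adjusted threshold, as by DESeq2 and limma voom, and at an unadjusted p below 0.05 the counts were 0 of 10 members and 3.63% of all genes. The fold changes on HF/HS are therefore not shown to differ from those on chow.

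A fit of genotype over both diets, added after the results per diet were seen, reuses the same mice. In it 1 of 10 genes passed the adjusted threshold, Oat, at -0.43 ± 0.08 (adjusted p = 0.0283, edgeR), against 0.158% of 13932 genes. Without replicate 7 of the HF/HS controls 63 of all genes passed in place of 22, and Oat was still the 1 member. At an unadjusted p below 0.05 the count was 7 of 10, all lower, against 13.1% of all genes in either direction and 6.16% lower. Fold changes were below 0 in 9 of 10 genes, against 51.7% of all genes. As on each diet, the genes co-vary and were chosen with earlier results known, so these counts do not test the set. The count at an unadjusted p below 0.05 was 5 of 10 without replicate 1 of the chow HGFAC-KO group and 5 of 10 without replicate 7 of the HF/HS controls. The adjusted p of Oat was 0.0507, 0.0583, 0.0570 and 0.0540 without chow control 1, HF/HS control 1, HF/HS HGFAC-KO mouse 2 and HF/HS HGFAC-KO mouse 7, respectively. With replicate number added to the edgeR fit as a block it was 0.0541.

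Other genes of zonation and of the Wnt pathway were examined as lists. On HF/HS in controls, 2 of 25 other pericentral genes rose and 9 fell (median log2 fold change -0.12, against 0.00 for all genes), where 4.93% of all genes rose and 5.6% fell. Cyp3a11 (-3.24), Gstm3 (-2.54), Cyp2a5 (-2.51) and Gstm1 (-1.56) had the smallest p, and the genes that rose were Slco1b2 (0.48), a bile acid and drug uptake transporter, and Gulo (0.47), named after their values were seen. Of 25 periportal genes 1 rose and 10 fell (median -0.22), among them the urea cycle enzymes Ass1 (-0.59) and Asl (-0.83), the glutaminase Gls2 (-0.58), and Etnppl (-1.58). Genes of both zones thus fell. In HGFAC-KO mice 8 of 25 pericentral and 5 of 25 periportal genes fell and none rose, where 2.73% of all genes fell and 3.17% rose. The P450 and glutathione transferase genes named have close paralogs, among which reads may be split.

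Cyp1a2 is a known target of the aryl hydrocarbon receptor (AHR), which senses planar aromatic compounds. Of the 6 tested of 8 other listed AHR targets 2 fell in controls and the same 2 in HGFAC-KO mice. Of all genes 5.6% fell in controls and 2.73% in HGFAC-KO mice. Nqo1, a quinone reductase, had log2 fold changes of -1.43 and -1.21, and Ugt1a6a, a glucuronosyltransferase that shares exons with its neighbors, -0.49 and -0.37. In controls Cyp1a1 (-0.40, at most 1.01 CPM in any mouse), Ugt1a6b (-0.14), Tiparp (0.02) and Cyp1b1 (0.01) did not pass. A part of AHR in the fall of Cyp1a2 was not tested. The counts of the Wnt lists were small and stand against 10.5% of all genes called in controls and 5.89% in HGFAC-KO mice, and no list was tested against other genes. Of 9 tested Wnt ligand, R-spondin and secretion genes 1 fell on HF/HS in controls, Wnt5a (-0.97; adjusted p = 0.00790, edgeR), and none passed in HGFAC-KO mice. Of the receptors and transducers, the beta-catenin cofactor Bcl9l (-0.28) and the signal relays Dvl1 (-0.16) and Dvl2 (-0.31) fell in controls, 3 of 19, with none higher. Of 18 inhibitors and destruction genes 3 rose, the corepressors Tle1 (0.43) and Tle4 (0.26) and the feedback inhibitor Nkd1 (0.43), which is also the 1 of 9 other Wnt targets that rose. In HGFAC-KO mice Bcl9l (-0.27) and Dvl2 (-0.42) fell, and Tle1 (0.39), Ccnd1 (0.74) and Cd44 (0.76) rose.

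**Figure D3:**
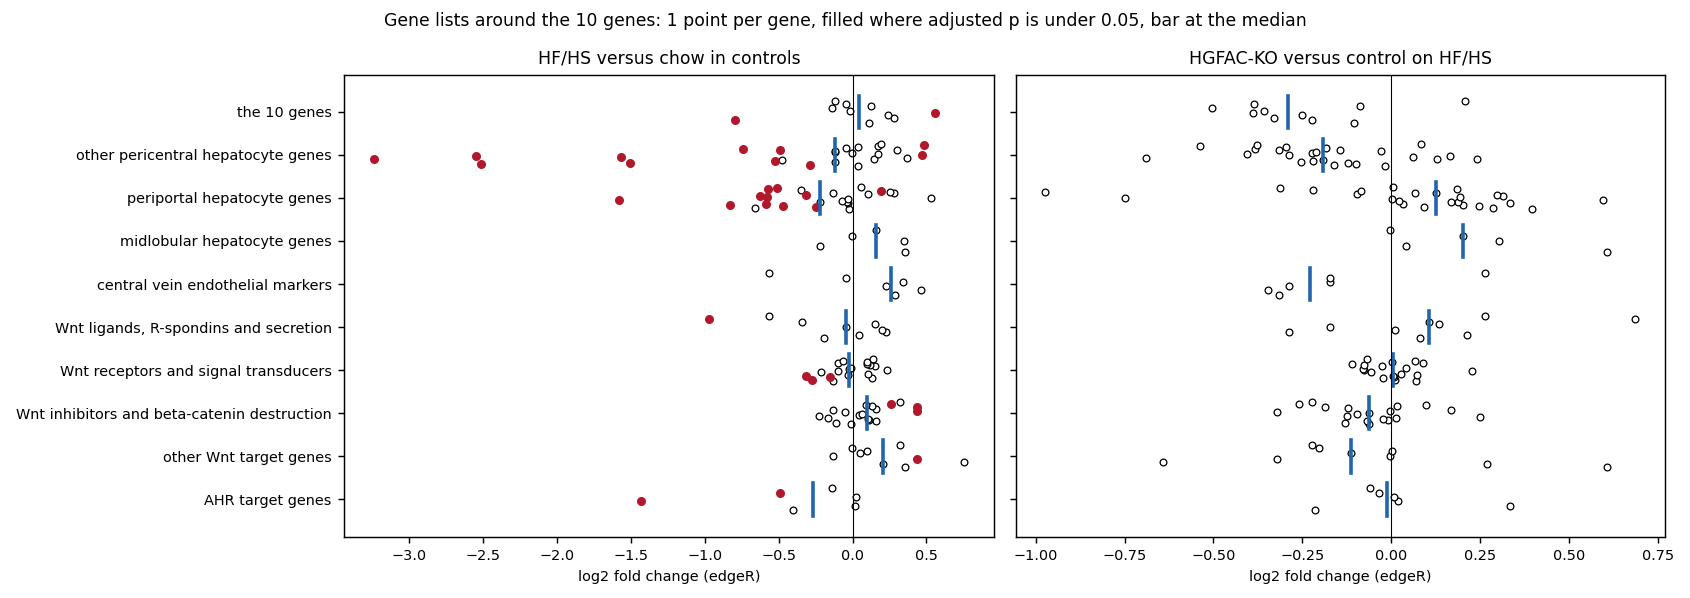
Log2 fold change (horizontal axis, edgeR) of the genes of each list, 1 point a gene, for HF/HS against chow in controls (left) and HGFAC-KO against control on HF/HS (right). Filled points pass an adjusted p of 0.05 and bars give medians, which on the right are -0.29 for the 10 genes, -0.19 for the other pericentral genes and 0.13 for the periportal genes.

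Between genotypes no gene of these lists passed the adjusted threshold on either diet by edgeR, whereas DESeq2 called 3 other pericentral genes and 1 periportal gene on HF/HS and 1 periportal gene on chow. On HF/HS, 8 of 25 other pericentral genes were lower at an unadjusted p below 0.05 and 0 higher, with a median of -0.19 (7 lower without replicate 7 of the controls). Slco1b2 had a log2 fold change of -0.38 and the organic cation transporter Slc22a3 -0.54. Of 25 periportal genes 2 were lower and 5 higher at that threshold, with a median of 0.13, and Alb (albumin) stood at 0.40 and Cdh1 (E-cadherin) at 0.33. Fold changes were above 0 in 19 of these 25 genes and below 0 in 6. Among the lower, named after their values were seen, Pck1 averaged 1612 ± 795 CPM (SD) in controls and 820 ± 474 in HGFAC-KO mice. G6pc averaged 208 ± 73.6 and 124 ± 81.2 CPM. On chow 1 of 25 pericentral genes was lower and 0 higher, and 1 of 25 periportal genes was lower and 2 higher. Of all genes 2.59% were lower and 3.39% higher at that threshold on chow, near these counts, and 4.7% and 4.94% on HF/HS. Of the Wnt ligands and R-spondins on HF/HS, Wnt5a stood at 0.69 and Rspo3 at -0.29, each past an unadjusted p of 0.05 only.

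The central vein endothelial markers, which include the ligands Wnt2, Wnt9b and Rspo3, had fold changes below 0 in 5 of 6 genes on each diet in HGFAC-KO mice, against 48.8% of all genes on chow and 50.5% on HF/HS. This was not particular to them: the sinusoidal endothelial markers were below 0 in 7 of 8 genes on each diet (medians -0.21 on chow and -0.15 on HF/HS), and the Kupffer cell and leukocyte markers in 8 of 8 on chow. On HF/HS 3 of 6 were lower at an unadjusted p below 0.05, among them Rspo3 (-0.29) and Kit (-0.35). Their summed level ran from 16.4 through 23.6 to 33.0 CPM in HF/HS controls and from 15.97 through 18.9 to 24.4 CPM in HF/HS HGFAC-KO mice, and no marker was at 0 in all mice. The sums overlapped, and their part in the levels of the 10 genes was not tested.

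The co-variation of the 10 genes was taken between mice of the same group, as deviations of log2 CPM from the group mean over 27 mice, so that diet and genotype do not enter. Of 45 pairs 40 had a Pearson r above 0, and r ran from -0.16 to 0.78 with a median of 0.30. A pair passed when each gene predicted the other at an adjusted p below 0.05, over all genes, in limma with the 4 groups as terms. By that rule 4 of 45 pairs passed: Glul with Cyp2e1, Glul with Cyp1a2, Lgr5 with Rnf43, and Cyp2e1 with Rnf43. The share of all 13931 other genes that co-varied with a gene was 2.88% for Glul, 3.98% for Cyp2e1, 0.416% for Cyp1a2, 1.77% for Slc1a2, 1.82% for Rnf43 and 7.56% for Lgr5. It was 0.00718% for Oat, 0.0215% for Lhpp and 0.0% for Axin2 and Tbx3. A gene such as Lgr5 thus co-varied with many genes that are neither pericentral nor Wnt targets by these lists.

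Glul and Cyp2e1 had r = 0.78 (permutation p = 2e-05) and Spearman's rho = 0.69 (permutation p = 0.00014), with limma adjusted p of 0.00155 and 0.00146. Without the 2 mice farthest from the median of Glul r was 0.66, and without replicate 1 of the chow HGFAC-KO group alone it was 0.71. Within groups r was 0.89, 0.87 and 0.89 in chow controls, chow HGFAC-KO mice and HF/HS HGFAC-KO mice, and 0.20 in HF/HS controls. Glul and Cyp1a2 had r = 0.69 (permutation p = 0.0014) and rho = 0.75 (permutation p = 4e-05), r = 0.78 without the 2 farthest mice, and r from 0.66 to 0.78 within the 4 groups. Their limma adjusted p were 0.0107 and 0.0426, and the pair failed the rule under upper-quartile scaling and with replicate number as a block.

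Lgr5 and Rnf43, whose products act on the same receptor complex, had r = 0.68 (permutation p = 0.00024) and rho = 0.62 (permutation p = 0.00147), with limma adjusted p of 0.00563 and 0.0187. It was 0.66 without the 2 farthest mice, and within groups it ran from 0.20 in chow controls to 0.84 in HF/HS HGFAC-KO mice. Cyp2e1 and Rnf43 had r = 0.65 (permutation p = 0.00029) and rho = 0.51 (permutation p = 0.00722), but 0.49 without the 2 farthest mice, with limma adjusted p of 0.0159 and 0.0254. The pair failed the rule without replicate 1 of the chow HGFAC-KO group or without HF/HS HGFAC-KO mouse 2, and Lgr5 with Rnf43 failed it without HF/HS control 7 or that same HF/HS HGFAC-KO mouse. Glul and Cyp2e1 passed with each of 27 mice left out, Lgr5 and Rnf43 with 25, Cyp2e1 and Rnf43 with 25, and Glul and Cyp1a2 with 14. With replicate number as a block only Glul with Cyp2e1 passed.

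Oat and Lhpp had the highest r of the pairs that failed the rule, r = 0.75 (permutation p = 0.00011) and rho = 0.67 (permutation p = 0.00063). Their limma adjusted p were 0.0533 and 0.0491, on either side of the threshold. Without the 2 farthest mice r was 0.63, and within groups it was 0.91 in chow controls, 0.62 in chow HGFAC-KO mice, 0.07 in HF/HS controls and 0.88 in HF/HS HGFAC-KO mice. Oat ranked 2nd among all genes by r with Lhpp, and Lhpp 2nd with Oat. Flanking genes, chosen after that r was seen, did not follow either: r with Oat was -0.03 for Chst15, -0.02 for Fam53b and 0.15 for Abraxas2, and with Lhpp -0.05, -0.29 and -0.06. Nkx1-2, which lies between them, had at most 5 counts in any mouse.

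Levels of cell type markers were set against the same genes, and no relation passed correction. The mean deviation of the sinusoidal endothelial markers had r = -0.61 with Glul (permutation p = 0.00125; rho = -0.58, permutation p = 0.00283), -0.55 with Cyp2e1 (permutation p = 0.00665; rho = -0.49, permutation p = 0.0156) and -0.59 with Cyp1a2 (permutation p = 0.00283; rho = -0.60, permutation p = 0.0026). That of the stellate cell markers had r = -0.58 with Glul (permutation p = 0.00682; rho = -0.56, permutation p = 0.0045) and -0.50 with Oat (permutation p = 0.00832; rho = -0.48, permutation p = 0.0187). Of 60 such relations of 6 marker lists, computed after the pairs were seen, 0 passed a Benjamini-Hochberg adjusted p of 0.05 and 12 an unadjusted permutation p of 0.05, and the adjusted p of r for these 5 ran from 0.075 to 0.0998. Without the 2 mice farthest in the marker level r was -0.61, -0.65 and -0.54 for the former 3 and -0.46 and -0.51 for the latter. Their part in the co-variation of the pairs was not tested.

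Axin2 and Rnf43 (r = 0.64) and Axin2 and Tbx3 (r = 0.59) failed the rule, although the former passed it in 1 direction (limma adjusted p of 0.0324 and 0.189). Glul and Axin2 had r = 0.54, but 0.04 without the 2 farthest mice. Within groups it was 0.97 in chow controls, 0.72 in chow HGFAC-KO mice, 0.01 in HF/HS controls and -0.05 in HF/HS HGFAC-KO mice, a difference between groups that was not tested. The 5 pairs below 0 all had r of -0.16 or closer to 0, and each included Lgr5, Tbx3 or Oat.

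**Figure D4:**
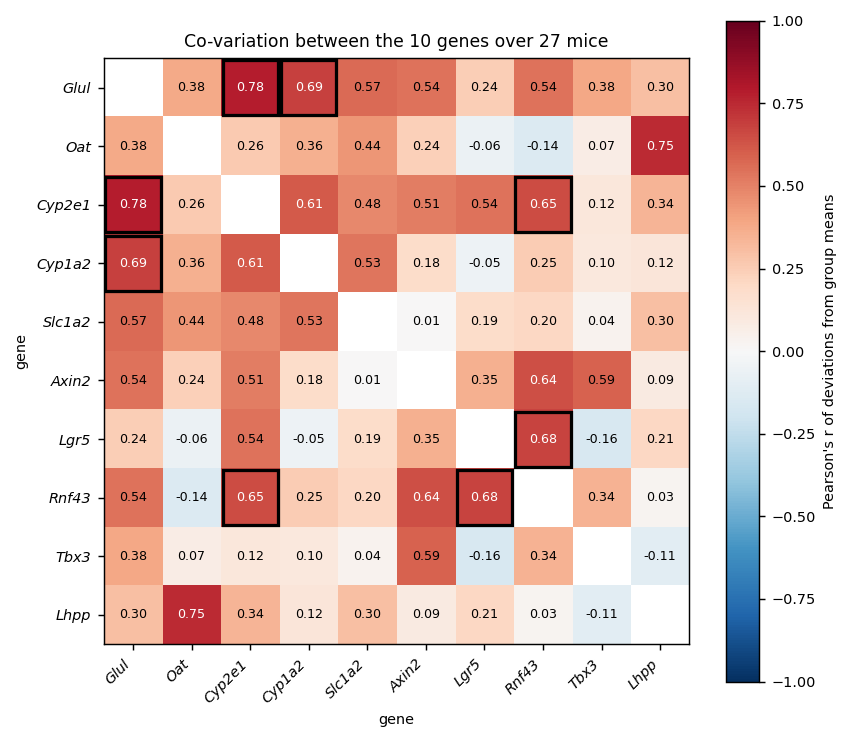
Pearson's r of deviations from group means over 27 mice for each pair of the 10 genes, from blue (negative) to red (positive). The 4 pairs outlined in black passed the limma rule in both directions, and r runs from -0.16 to 0.78.

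**Figure D5:**
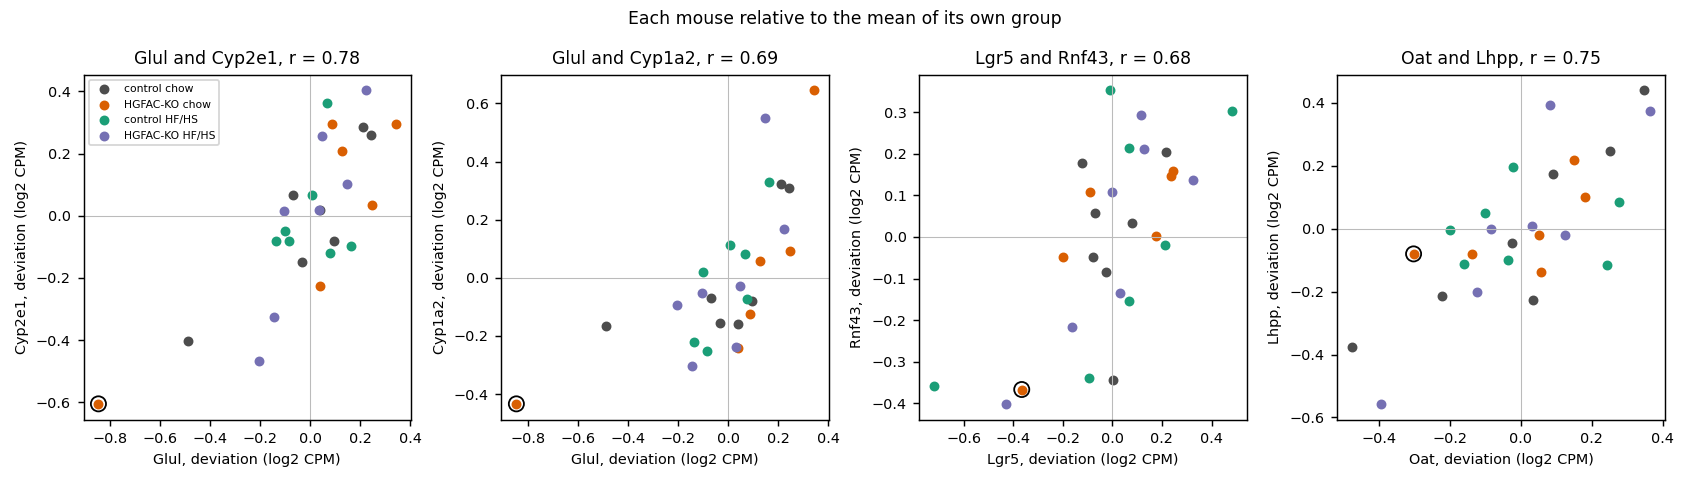
Deviation of each of 27 mice from its group mean (log2 CPM on both axes) for 4 pairs, colored by group, with replicate 1 of the chow HGFAC-KO group ringed. That mouse lies at the low end of Glul and Cyp2e1, where r was 0.78, and 0.71 without it.

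By the r of deviations over all 13931 other genes, the 3 genes nearest to each member were the following. Glul went with Epb41l4b (r = 0.85), Gna14 (0.84) and Slc25a21 (0.83), and its best member, Cyp2e1, ranked 13th. Spearman's rho with Glul was 0.73, 0.67 and 0.63 for these 3 genes and 0.69 for Cyp2e1, so the order holds for r only. Cyp2e1 went with Sugct (0.91), Acsm5 (0.90) and Nr1i3 (0.89), the last of which encodes the nuclear receptor CAR and is on the pericentral list. Cyp1a2 went with Ndufaf1 (0.85), Mup3 (0.79) and 1110032A03Rik (0.78). Oat went with Prdx3 (0.76), Lhpp (0.75) and Adk (0.67), and Lhpp with Cops6 (0.77), Oat (0.75) and Rdh9 (0.73). Slc1a2 went with Sntg2 (0.86), 4930581F22Rik (0.82) and Fgf1 (0.77).

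Of the feedback genes, Lgr5 went with Prkd3 (r = 0.88), Klkb1 (0.85) and Nr1h5 (0.84), Rnf43 with Tsc22d1 (0.82), 1700001C19Rik (0.80) and Cited2 (0.77), and Axin2 with Cs (0.77), Hjv (0.76) and Nav2 (0.73). Tbx3 went with Prmt5 (0.80), Polr1a (0.77) and Cherp (0.76). Outside Oat and Lhpp no member ranked among the 3 nearest genes of another. The best member ranked 22nd for Cyp2e1, 31st for Cyp1a2, 34th for Axin2, 36th for Rnf43, 121st for Tbx3, 163rd for Lgr5 and 286th for Slc1a2.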

How the data were processed

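Liver RNA of 27 mice was sequenced from stranded mRNA libraries as 50 bp pairs. The authors aligned reads with HISAT2 to GRCm38 and made counts with featureCounts (1.6.3 per the labels); the deposited table holds whole-number counts per gene in 1 column per mouse. The annotation and strand setting are not given in the sources used here. From 27179 rows, 3886 named no gene (4.13% to 12.1% of counts) and were left out, and rows of 1 symbol were summed. Depth was 36056177 to 57298657 counts. No 2 libraries of the same group agreed within sampling noise.

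Comparisons were fitted on the mice compared with edgeR 4.0.16 (R 4.3.3; filterByExpr with a minimum count of 10, TMM, robust quasi-likelihood test, Benjamini-Hochberg over all genes tested). Levels are CPM, and log2 CPM has a prior count of 2. Single levels were compared by exact permutation, unadjusted. Co-variation used limma 3.58.1 and 100000 permutations within groups. DESeq2 1.42.0, limma voom, other scalings and filters, and leaving out each mouse were alternatives. Scripts were tested on simulated data. Named genes were all 10 members, Hgfac, up to 4 genes per list past the threshold by smallest p (else the 2 of smallest p), and the 3 genes nearest each member. The members and lists were chosen with earlier results of these data known. Replicate numbers did not clearly pair the mice by the correlations given below, which cannot exclude a shared litter, cage or batch. Each mouse is 1 library, taken as a separate animal from the labels.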

Additional observations from a re-analysis of the deposited data

Results flagged for a closer look

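In 44 groups of mice (the 10 genes and Hgfac in 4 groups), 2 levels stood far from the rest of their group by Dixon's test, where chance flags about 1 in 20 groups, or 2.2 here. Glul, the enzyme of glutamine synthesis, was at 588 CPM in replicate 1 of the chow HGFAC-KO group, and the next lowest mouse was at 1086. The gap was 0.662 of the group's range, past the critical value for 6 mice. Cyp2e1 was at 8763 CPM in replicate 5 of the HF/HS controls, the next highest was at 7140, and the gap was 0.655 of the range, past the critical value for 7 mice.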

How the results depend on the processing

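Over the 10 genes and 6 comparisons, 390 of 400 fold changes under another tool, scaling, filter or fit kept their direction and their side of the threshold, as did 1034 of 1080 with 1 mouse left out. Cyp1a2 kept its call between diets in both genotypes under all of these. Numbers of the replicates did not clearly pair the mice: deviations of same-numbered mice correlated from -0.252 to 0.368, over 0.1 in 8 of 26 pairs. Such correlations cannot exclude a shared litter, cage or batch. With a replicate block, Lgr5 lost its diet call in controls (adjusted p = 0.0589), which left 1 gene, Oat lost its call over both diets (adjusted p = 0.0541), which left 0, and 1 pair co-varied. It changed no other call of the 10 genes. Among the listed genes between diets in controls the block left 0 of the 3 called receptors and transducers, 1 of the 3 inhibitors by count and 0 of the 1 other Wnt target, and Sox9 lost its call over both diets. DESeq2 called 1 gene between genotypes on HF/HS (Oat) and 2 over both diets (Oat, and Slc1a2 with adjusted p = 0.0477). With 1 mouse left out, calls ran from 1 to 2 between diets in HGFAC-KO mice, from 0 to 1 between genotypes on HF/HS and from 0 to 1 over both diets, and 2 to 6 pairs co-varied. The gain in the diet count and in the HF/HS genotype count was Oat without HF/HS HGFAC-KO mouse 5 (adjusted p = 0.0397 and 0.0381). The pair count was 2 without HF/HS HGFAC-KO mouse 2. The causes were not tested.

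Signs that turned were those of fold changes near 0. In controls between diets Lhpp was 0.003418 with limma voom and 0.001219 with the replicate block. In HGFAC-KO mice between diets Rnf43 was -0.01391 with that block. On chow between genotypes Rnf43 was -0.000244 with DESeq2, -0.001072 without a filter and -0.003146 in the fit of 27 mice. With 1 mouse left out, the diet fold changes ran from -0.1052 to 0.005515 for Slc1a2 and from -0.07282 to 0.064 for Lhpp in controls. In HGFAC-KO mice they ran from -0.006558 to 0.1895 for Glul, from -0.06182 to 0.1044 for Cyp2e1, from -0.05822 to 0.07554 for Axin2 and from -0.02706 to 0.09563 for Rnf43. The genotype fold changes on chow ran from -0.1481 to 0.009664 for Cyp2e1, from -0.06308 to 0.06771 for Axin2 and from -0.05016 to 0.06477 for Rnf43. The interaction ran from -0.1246 to 0.1431 for Cyp1a2, and the fold change over both diets from -0.003812 to 0.08064 for Tbx3.

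Over all genes, DESeq2 called 1401 against 802 by edgeR between diets in HGFAC-KO mice, 13 against 1 between genotypes on chow, 55 against 2 on HF/HS and 180 against 22 over both diets. The replicate block gave 774 against 1424 between diets in controls and 14 against 22 over both diets, and the fit of 27 mice 1 against 2 on HF/HS. The lowest count of any of the 10 genes in a library was 232, for Lgr5, on whose level counting error weighs most.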

Other observations

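Markers of other liver cells were measured in the same fits. In HGFAC-KO mice, 4 of 8 Kupffer cell and leukocyte markers rose on HF/HS (median log2 fold change 0.56), where 3.17% of all genes rose. These were Cd68 (0.51), a lysosomal protein of macrophages, Clec4f (0.65), a Kupffer cell lectin, Ptprc (0.63), the pan-leukocyte CD45, and Adgre1 (0.61), the antigen F4/80. On chow all 8 markers had fold changes below 0 in HGFAC-KO mice against controls (median -0.27). In controls 0 of 8 passed by edgeR, 2 at an unadjusted p below 0.05, with a median of 0.15. The interaction passed for 0 of 8, also 0 at an unadjusted p, so the difference between genotypes is not shown. Of 8 sinusoidal endothelial markers 7 had fold changes above 0 on HF/HS in each genotype (medians 0.28 in controls and 0.35 in HGFAC-KO mice), 4 and 5 of them at an unadjusted p below 0.05. Of all genes 12.4% in controls and 11.4% in HGFAC-KO mice were higher at that unadjusted threshold. Of these markers 1 passed the adjusted threshold, the scavenger receptor Stab2 in HGFAC-KO mice (0.42). Of 8 stellate cell markers 7 had fold changes above 0 in controls (median 0.15), whereas the 1 that passed, Lrat, which stores retinol as esters, fell (-0.60). Of 7 hepatocyte markers 2 had fold changes above 0 there (median -0.02), among them the 1 that passed, Apoa1 (0.39). Between diets in controls 10.5% of all genes passed. With DESeq2 the Kupffer cell and leukocyte count in controls was 1 of 8, as it was in the fit of 27 mice.

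Over both diets 22 genes passed between genotypes, 14 higher and 8 lower in HGFAC-KO liver, and 63 without replicate 7 of the HF/HS controls, which stood apart from its group. Of the listed genes outside the 10, 2 were among them, both higher: Alb at 0.30 (adjusted p = 0.0283, edgeR) and the cholangiocyte marker Sox9 at 0.67 (adjusted p = 0.0434, edgeR). Of 5 cholangiocyte markers Sox9 was the 1 past an unadjusted p of 0.05, where 13.1% of all genes were. The median of these markers was 0.08.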
